A study of Mus musculus with 12 samples.

Results

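The testis-specific serine kinases and their substrate Tsks were followed here in sorted mouse spermatids. The members are the kinase genes Tssk1, Tssk2, Tssk3, Tssk4 and Tssk6 and the gene Tsks, and every contig of the mutants' count table that the deposited tables name with 1 of these 6 symbols was taken. A contig is 1 reference sequence to which reads were assigned, here an annotated transcript. The rule gave 10 contigs of 12114, namely 3 of Tsks, 3 of Tssk4 and 1 of each other gene, and it used no measured value. All 10 passed the filter on low counts that left 11831 contigs to test.

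The libraries came from round spermatids (RS) and elongated spermatids (ES) of adult males of C57BL/6 background, either Tent5c wt/wt or Tent5c dcat/dcat. The dcat allele encodes a catalytically dead TENT5C, a non-canonical poly(A) polymerase that lengthens mRNA tails. Each of the 4 groups (RS wt/wt, RS dcat/dcat, ES wt/wt and ES dcat/dcat) had 3 libraries, each made from poly(A) RNA pooled from 3 mice, with cells sorted on Hoechst and PI staining and light scatter. Per the study's methods, both stages of a genotype came from the same mice and each sorting session held a mouse of either genotype, while nothing states that libraries with the same replicate number hold the same mice. Native RNA molecules were read by nanopore, so that 1 read stands for 1 molecule.

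Testis-specific serine kinases form a small branch of the calcium/calmodulin-dependent kinase (CAMK) group and are expressed almost exclusively after meiosis, in spermatids that are building the sperm head and tail. TSSK1 and TSSK2 bind and phosphorylate TSKS, a scaffold protein that is not itself a kinase, and male mice without both kinases are infertile. TSSK6 is needed for chromatin condensation, TSSK3 for normal sperm formation, and TSSK4 for the structure of the flagellum.

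Tssk1 and Tssk2 are neighbours. On build GRCm38, Tssk1 (Tssk1-201, ENSMUST00000046937) covers chr16:17894223-17897922 on the plus strand as 1 exon of 3700 bases, of which 2472 lie in the 3′ UTR after the stop codon, and the intronless Tssk2 (Tssk2-201, ENSMUST00000055374) covers chr16:17898637-17900024 on the same strand as 1388 bases. Between their annotated ends lie 714 bases. Tssk3 (Tssk3-201, ENSMUST00000000421) lies on the minus strand at chr4:129489014-129491022 with 2 exons, and Tssk6 (Tssk6-201, ENSMUST00000050373) on the plus strand at chr8:69902184-69903518 with 1 exon. Tssk4 (Tssk4-207, ENSMUST00000228395) covers chr14:55650184-55652539 with 4 exons, and Tsks (Tsks-202, ENSMUST00000120929) covers chr7:44943222-44958035 with 11 exons, both on the plus strand. On the opposite strand, Dgcr2 overlaps Tssk1, and Ndufa13 and Yjefn3 overlap Tssk6. Direct RNA reads keep their strand, but whether the counting used it is not given in the sources used here.

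The coding sequences show how alike the kinases are. Those of Tssk1 and Tssk2 matched at 78.3% of aligned bases, while every other pair of kinases matched at 52.1% to 58.8%. One exact run of 113 coding bases is shared by the Tssk1 transcript (chr16:17894723-17894835) and the Tssk2 transcript (chr16:17899105-17899217), whereas the longest run of any other pair of kinases was 13 bases. Reads were kept only with a poly(A) tail, so a counted read also holds 3′ UTR sequence, of 2472 bases in Tssk1 and 213 in Tssk2. Assignment of reads between the 2 genes was not tested. The run is printed here without capitals because the 2 copies do not differ.
Tssk1 and Tssk2, shared coding run: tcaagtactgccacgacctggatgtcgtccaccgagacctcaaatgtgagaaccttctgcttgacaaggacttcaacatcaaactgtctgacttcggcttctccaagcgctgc

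The bases just before the annotated starts are printed for the neighbours Tssk1 and Tssk2, which stand side by side and yet moved by different amounts. They are also printed for Tssk6, whose log2 change in wt/wt was the largest estimate (2.60 ± 0.23, SE), though not separated from that of Tssk3 (2.56 ± 0.21). Capitals mark runs of at least 8 bases that the Tssk1 and Tssk2 windows of 250 bases share, and in Tssk6 the letters TGACG, with which the cAMP response element begins. All are from GRCm38, 5′ to 3′, and end at the base before the transcript.
Tssk1, chr16:17894103-17894222, plus strand: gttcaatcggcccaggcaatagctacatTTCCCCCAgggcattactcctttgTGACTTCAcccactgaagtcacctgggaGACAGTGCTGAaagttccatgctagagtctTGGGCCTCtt
Tssk2, chr16:17898517-17898636, plus strand: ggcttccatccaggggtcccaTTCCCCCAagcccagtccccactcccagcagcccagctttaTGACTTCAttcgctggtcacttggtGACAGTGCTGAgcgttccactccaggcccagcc
Tssk6, chr8:69902064-69902183, plus strand: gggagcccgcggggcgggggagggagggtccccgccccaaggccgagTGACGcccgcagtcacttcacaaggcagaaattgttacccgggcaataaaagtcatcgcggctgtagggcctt

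Tssk1 and Tssk2 share the run GACAGTGCTGA of 11 bases, at position -40 from the start of Tssk1 and -33 from that of Tssk2, which was found on the gene's strand in 4 of the 32851 windows of the same length that RefSeq gives for GRCm38.p6 (0.0122%). The run was picked because both windows hold it, and those 32851 windows include the 6 member genes. Its rarity was not tested, and a run of this length is rare in any window. They also share TGACTTCA (0.688% of windows) and TTCCCCCA (0.95%), and TGGGCCTC of the Tssk1 window recurs in that of Tssk2 before the stretch printed, as does CTTCTAGG in both. Other pairs of members shared runs of at most 10 bases. With both strands searched, the full cAMP response element TGACGTCA was in 1.55% of windows and in 0 of the 6 members'. TGACG, its first letters, was in 17.8% of windows and, of the members', in that of Tssk6. The TATA box letters TATAAA were in 12.4% of windows and in 0 of the 6. These matches describe letters in a window and were not tested for binding or use.

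The members made up a small part of each library. Between 337287 and 1359427 reads were counted per library, of which the members took 0.135% to 0.179% in RS and 0.330% to 0.400% in ES, with no overlap between the stages. Levels below are in CPM, a contig's reads relative to all counted reads, after TMM scaling for library composition (scaled CPM), and a count of 3, the floor used here, was worth 1.77 to 10.6 scaled CPM. In bulk samples, fewer cells of a type and less RNA per cell cannot be told apart. All 6 elongated spermatid markers (Prm1, Prm2, Tnp1, Tnp2, Odf1 and Smcp) were higher in ES than in RS, with a summed level of 18747 to 40739 scaled CPM in RS libraries and 206408 to 275029 in ES libraries. The 4 round spermatid markers (Acrv1, Spaca1, Catsper3 and Catsper4) summed to 400 to 506 in RS and 262 to 353 in ES.

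Markers of other testis cells also moved with the stage. Of 8 Leydig cell markers 3 had a contig (Cyp11a1, Cyp17a1 and Insl3), with a sum of 9.14 to 37.8 scaled CPM in RS and 183 to 692 in ES. Star, Lhcgr, Hsd3b1, Hsd3b6 and Hsd17b3 had no contig. In ES wt/wt the mean sum was 521.8 scaled CPM, of which Insl3 held 442.8, Cyp17a1 56.2 and Cyp11a1 22.8. Their log2 changes in wt/wt were 4.25, 4.16 and 4.19 in the same order. In RS wt/wt, Cyp17a1 had 3.05 ± 2.01 and Cyp11a1 0.79 ± 1.37 scaled CPM (mean ± SD). A count of 3 was worth 1.77 to 3.57 in those libraries, so the sizes of the Cyp17a1 and Cyp11a1 changes are uncertain. The paper describes Insl3 transcripts in ES as well as in Leydig cells. Of 9 Sertoli cell markers 3 had a contig (Clu, Cldn11 and Aard), with 2.14 to 21.0 in RS and 133 to 260 in ES. Sox9, Amh, Wt1, Fshr, Gata4 and Rhox5 had none. All 6 measured Leydig and Sertoli cell markers were called higher in ES in either genotype. Of 7 meiotic markers 5 were measured, with sums of 212 to 296 in RS and 116 to 169 in ES, and 0 of 5 blood and macrophage markers had a contig. The part of these cells in the stage differences below was not tested.

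After TMM scaling, transcripts of 5 of the 6 genes were higher in ES than in RS, relative to the other counted reads. Those of Tssk4 were not. With total counts alone the rise of Tssk1 was not called in wt/wt or dcat/dcat (edgeR q = 0.547 and 0.561). All rises and falls here are relative. The paper states that transcription ceases in elongating spermatids and that transcript abundance decreases in absolute terms, and amounts per cell were not measured here. In wt/wt males, under TMM scaling, Tssk6 rose 6.06-fold and Tssk3 5.91-fold, followed by Tsks and Tssk2, while Tssk1 rose 1.76-fold. The sizes depended on the scaling. With total counts alone the wt/wt log2 changes were 1.89 for Tssk6, 1.85 for Tssk3, 1.42 for Tssk2 and 0.10 for Tssk1. Those of the Tsks contigs then ran from 1.48 to 1.64. The counts that follow are again under TMM scaling. In wt/wt, 7 of the 10 member contigs were called higher in ES and 0 lower by edgeR's quasi-likelihood test at an adjusted p (q) of 0.05, against 23.8% of all tested contigs called higher and 16.5% called lower (40.3% in all). The members' median log2 change was 2.16, against -0.24 over all contigs tested. In 8 of the 10 contigs the RS and ES libraries did not overlap, against 53.3% of all contigs, and 7 had an unadjusted p under 0.05, against 49%.

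**Figure D1:**
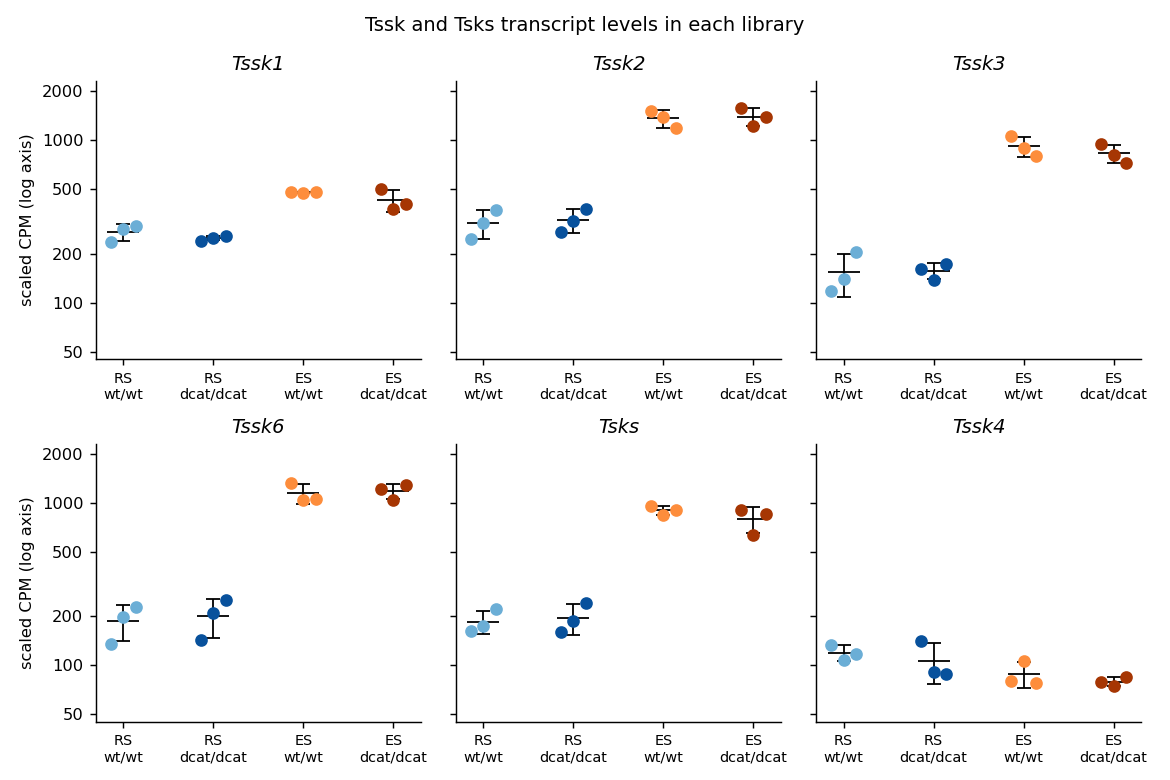
Scaled CPM on a log axis of each gene, summed over its contigs, in every library of the 4 groups, with 1 point per library, the group mean as a horizontal line and bars of 1 SD. All 6 ES libraries lie above all 6 RS libraries for Tssk1, Tssk2, Tssk3, Tssk6 and Tsks under this scaling (scaled by total counts alone, the rise of Tssk1 did not pass the test), while the 2 genotypes overlap within each stage for every gene.

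Tssk1 encodes a kinase that binds TSKS. It had 234.3, 283.6 and 294.5 scaled CPM in the RS wt/wt libraries and 475.4, 471.7 and 480.2 in the ES wt/wt libraries. The ES values lay close together and above every RS value. The log2 change was 0.81 ± 0.16 (SE, n = 3 libraries per group, edgeR q = 9.53e-04). In dcat/dcat libraries Tssk1 had 240.4, 250.4 and 255.4 in RS and 500.8, 374.5 and 405.2 in ES, again without overlap, and the change was 0.78 ± 0.16 (edgeR q = 0.00133). Scaled by total counts alone, where the median of all contigs moved from -0.24 to -0.96 in wt/wt and from -0.18 to -0.85 in dcat/dcat, Tssk1 changed by 0.10 in either genotype (edgeR q = 0.547 and 0.561) and was no longer called. Relative to the median of all contigs it stood 1.05 above in wt/wt under the first scaling and 1.06 above under the second.

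Tssk2, the neighbour of Tssk1 and also a TSKS kinase, was the most abundant member in every group. Its RS wt/wt libraries had 244.3, 308.6 and 370.8 scaled CPM and its ES wt/wt libraries 1511, 1375 and 1183. The lowest ES library thus held over 3 times the level of the highest RS library. Tssk2 had 270.3, 316.0 and 375.7 in dcat/dcat RS and 1572, 1218 and 1374 in dcat/dcat ES, a log2 change of 2.11 ± 0.19 (SE, edgeR q = 3.11e-06), against 2.14 ± 0.19 in wt/wt (edgeR q = 1.87e-06).

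Tssk3, the smallest of these kinases by coding length, had 117.1, 140.6 and 204.0 scaled CPM in wt/wt RS and 1054, 894.0 and 791.0 in wt/wt ES. All ES libraries were far above the RS libraries, in which replicate 3 was the highest. The log2 change was 2.56 ± 0.21 (SE, edgeR q = 1.67e-06). With 160.3, 137.7 and 172.2 in dcat/dcat RS and 943.7, 808.9 and 726.0 in dcat/dcat ES, the change there was 2.39 ± 0.21 (edgeR q = 3.11e-06).

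Tssk6, the kinase tied to chromatin condensation, had 135.4, 199.0 and 228.3 scaled CPM in wt/wt RS and 1323, 1037 and 1056 in wt/wt ES. Every ES library held over 4 times the level of any RS library. Its log2 change of 2.60 ± 0.23 (SE, edgeR q = 1.89e-06) was larger than that of 93.9% of tested contigs. In dcat/dcat the RS libraries had 142.1, 211.1 and 250.5 and the ES libraries 1208, 1039 and 1276, a change of 2.54 ± 0.23 (edgeR q = 3.17e-06).

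Tsks, the gene of the scaffold and substrate protein, had 162.8, 174.0 and 220.6 scaled CPM in wt/wt RS and 957.1, 840.8 and 900.5 in wt/wt ES, summed over its 3 contigs. Each contig rose, Tsks-202 by 2.19 ± 0.23, Tsks-201 by 2.36 ± 0.22 and Tsks-204 by 2.22 ± 0.46 (log2, SE, largest edgeR q = 0.00152). In dcat/dcat, Tsks had 159.2, 186.2 and 241.4 in RS and 901.9, 629.2 and 845.9 in ES. The contigs there rose by 2.02, 1.89 and 2.40 in the same order (log2, largest edgeR q = 8.09e-04).

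Tssk4, the kinase that phosphorylates the outer dense fibre protein ODF2, stood apart from the other genes. It had 133.8, 107.2 and 117.1 scaled CPM in wt/wt RS and 80.3, 106.5 and 77.7 in wt/wt ES, summed over 3 contigs. The highest ES library lay just under the lowest RS library. Its main contig Tssk4-207 had 83.1, 69.1 and 78.1 in wt/wt RS and 54.9, 57.1 and 49.4 in wt/wt ES, again without overlap, and the log2 change of -0.50 ± 0.24 (SE) did not pass the test (edgeR q = 0.108). Tssk4-204 differed by -0.16 ± 0.42 and Tssk4-201 by -0.55 ± 0.65 (edgeR q = 0.779 and 0.525). Tssk4-201 rested on few reads, with 25, 7 and 13 counts in wt/wt RS and 5, 6 and 0 in wt/wt ES. In dcat/dcat, Tssk4 had 141.0, 90.5 and 88.2 in RS and 78.8, 74.9 and 84.4 in ES, and its contigs differed by -0.30, -0.48 and -0.98 with 0 of 3 passing (smallest edgeR q = 0.252).

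The call on Tssk4 depended on the scaling and on the filter. With total counts alone, Tssk4-207 fell by 1.23 in wt/wt (edgeR q = 7.90e-04) and all 3 contigs were called lower in dcat/dcat, against a median of all contigs that itself fell. Relative to that median Tssk4-207 stood at -0.26 under the first scaling and -0.27 under the second in wt/wt. Where only contigs with at least 10 counts in every library were kept, Tssk4-207 fell by 0.83 in wt/wt (edgeR q = 0.00562) and fell by 0.57 in dcat/dcat (edgeR q = 0.0373). Relative to the median of the contigs kept, it stood at -0.76 in wt/wt and -0.52 in dcat/dcat.

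**Figure D2:**
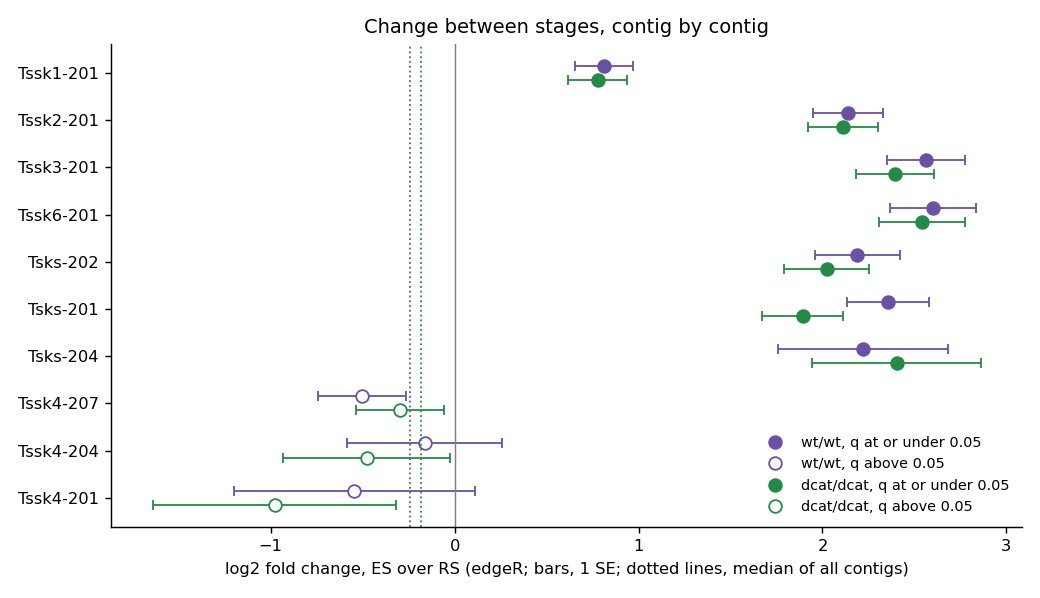
Log2 fold change of ES over RS for each of the 10 contigs, with bars of 1 SE from edgeR, for wt/wt (purple) and dcat/dcat (green). Filled points passed q = 0.05, open points did not, and dotted lines mark the median of all tested contigs (-0.24 and -0.18). The 3 Tssk4 contigs lie below 0, the other 7 between 0.78 and 2.60 (with total counts alone, Tssk1 came to 0.10 and was not called).

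The stage comparison gave the same counts in dcat/dcat libraries, with 7 of 10 member contigs called higher and 0 lower, against 24% and 16.9% of all contigs (41% in all). The members' median log2 change was 1.96 there, against -0.18 over all contigs, and 7 of 10 did not overlap between stages, against 50.9% of all contigs, and 7 had an unadjusted p under 0.05, against 49.8%. The 2 genotypes are separate libraries, so the stage comparison was made on different animals in each.

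The order of the genes changed between the stages. By scaled CPM, where 1 read is 1 molecule, the order in both RS groups was Tssk2, Tssk1, Tssk6, Tsks, Tssk3 and Tssk4, and in both ES groups Tssk2, Tssk6, Tssk3, Tsks, Tssk1 and Tssk4. In RS wt/wt, the ranges over libraries of Tssk2 (307.9 ± 63.3, mean ± SD, n = 3) and Tssk1 (270.8 ± 32.1) overlapped. So did those of the neighbours from Tssk6 (187.6 ± 47.5) through Tsks (185.8 ± 30.6) and Tssk3 (153.9 ± 44.9) to Tssk4 (119.4 ± 13.4), while every library of Tssk1 lay above those of Tssk6. Inside each RS wt/wt library, though, Tssk2 lay above Tssk1 (log2 ratio of Tssk1 to Tssk2 from -0.33 to -0.06). Tsks likewise lay above Tssk3 (Tssk3 to Tsks, -0.47 to -0.11). The order of Tssk6 and Tsks, and that of Tssk3 and Tssk4, differed between these libraries. In ES wt/wt the neighbours Tssk2 (1356 ± 165), Tssk6 (1138 ± 160), Tssk3 (913.1 ± 132.7) and Tsks (899.5 ± 58.2) each overlapped the next, while Tssk1 (475.8 ± 4.3) lay below all of the libraries of Tsks and above all of those of Tssk4 (88.2 ± 16). Inside each ES wt/wt library Tssk2 lay above Tssk6 (log2 ratio of Tssk2 to Tssk6 from 0.16 to 0.41). Tssk6 likewise lay above Tssk3 (Tssk3 to Tssk6, -0.42 to -0.21). The order of Tssk3 and Tsks differed between these libraries. Orders inside a library were not tested. Per kilobase of transcript, Tssk2 led with 221.8 ± 45.6 scaled CPM per kb in wt/wt RS and 977.2 ± 118.6 in wt/wt ES. On that scale the long Tssk1 transcript was lowest in wt/wt RS (73.2 ± 8.7 per kb) and Tssk4 lowest in wt/wt ES (69.2 ± 12.4 per kb). Because 1 read is 1 molecule, the order per kilobase also reflects transcript length and is not an order of molecule numbers.

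As shares of all member reads, Tssk1 went from 22.2% ± 1.5 in wt/wt RS to 9.83% ± 0.96 in wt/wt ES (mean ± SD, n = 3). Tssk4 held 13.0%, 8.84% and 8.16% in the RS wt/wt libraries and 1.49%, 2.25% and 1.73% in the ES wt/wt libraries. Tssk6 went from 15.2% ± 1.7 to 23.3% ± 1.3 and Tssk3 from 12.4% ± 1.6 to 18.7% ± 1.0. Tssk2 held 25.01% ± 1.1 and 27.8% ± 1.4. Shares of 1 total are tied to each other, so these values describe the make-up of the member reads and were not tested.

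Ratios of 2 members inside 1 library do not depend on the scaling between libraries, and they were tested for all 15 pairs. The mean log2 ratio was compared between stages by an exact two-sided permutation test with stage labels exchanged within genotype (400 arrangements, smallest possible p = 0.005), and 13 of 15 pairs passed after adjustment over the pairs. Tssk1 fell against Tssk2 by 1.34 on the log2 scale (exact permutation p = 0.005, q = 0.00682). In RS wt/wt the log2 ratio of Tssk1 to Tssk2 was -0.06, -0.12 and -0.33, and in wt/wt ES it was -1.67, -1.54 and -1.30. In RS dcat/dcat it was -0.17, -0.33 and -0.56, against -1.65, -1.70 and -1.76 in dcat/dcat ES. All ES libraries lay below all RS libraries, so the neighbours Tssk1 and Tssk2 changed unequally whatever the scaling.

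Tssk4 was lower in ES against every other member. Its log2 ratio to Tssk6 fell by 3.00 and that to Tsks fell by 2.56, while the ratio to Tssk4 rose by 2.90 for Tssk3, 2.54 for Tssk2 and 1.20 for Tssk1. None of these 5 ratios overlapped between stages, and each had an exact permutation p of 0.005 (q = 0.00682). Tssk1 also changed by -1.70 against Tssk3, -1.80 against Tssk6 and -1.36 against Tsks, with the same p. The remaining 4 genes stayed closer. Tssk6 rose by 0.45 against Tsks, without overlap, and Tssk2 fell by 0.47 against Tssk6 (both exact permutation p = 0.005). Tssk2 also fell by 0.36 against Tssk3 (exact permutation p = 0.01, q = 0.0125), with overlap.

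The pairs that did not pass were Tssk2 to Tsks, with a difference of -0.02 (exact permutation p = 0.825), and Tssk3 to Tssk6, with -0.11 (exact permutation p = 0.565, q = 0.605). For Tssk2 to Tsks the RS libraries ran from 0.58 to 0.82 and the ES libraries from 0.39 to 0.95. The rise of Tssk3 against Tsks by 0.34 (exact permutation p = 0.035, q = 0.0404) was the weakest call. It was lost when any 1 of 8 of the 12 libraries was left out (RS wt/wt replicates 1 and 2, RS dcat/dcat replicates 2 and 3, ES wt/wt replicates 1 and 2, or ES dcat/dcat replicates 1 and 2), with exact permutation q from 0.0577 to 0.0981, and when stages were exchanged only within same-numbered libraries of a genotype as a replicate block (exact permutation q = 0.108).

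**Figure D3:**
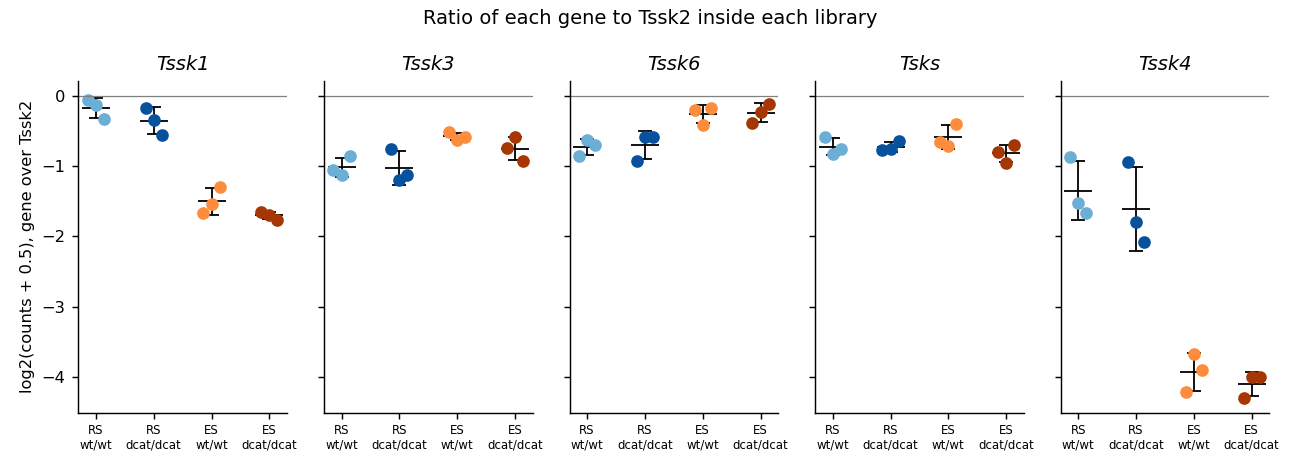
Log2 ratio of the counts (plus 0.5) of each of 5 genes to those of Tssk2 inside each library, by group, with the group mean as a line and bars of 1 SD. Tssk1 and Tssk4 sit lower against Tssk2 in all 6 ES libraries than in all 6 RS libraries, Tssk6 sits higher, and the stages overlap for Tssk3 and Tsks.

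Tsks and Tssk4 were counted on several annotated transcripts, which differ in their coding sequence. Tsks-202 holds 27 coding bases at chr7:44951836-44951862 that Tsks-201 lacks, and Tsks-201 retains 32 bases near the end that Tsks-202 lacks. Tsks-204, with only 4 exons and 651 bases, lacks 7 coding stretches of Tsks-202, of 84 to 287 coding bases each. Tssk4-207 and Tssk4-201 hold 30 coding bases at chr14:55651459-55651488 that Tssk4-204 lacks, and Tssk4-201 has 147 more bases at chr14:55652119-55652265, of which 42 are coding. Capitals mark the variable stretch inside 15 bases of sequence on either side in the spliced transcript (GRCm38, gene's strand).
Tsks-202: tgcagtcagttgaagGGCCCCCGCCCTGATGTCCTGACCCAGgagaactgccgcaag
Tssk4-207: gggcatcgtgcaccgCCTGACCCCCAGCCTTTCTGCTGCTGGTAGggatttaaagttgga

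No transcript's share of its gene passed the test between stages. Tsks-202 held 48.2% ± 2.1 of the reads of Tsks in wt/wt RS, 45.5% ± 0.7 in dcat/dcat RS, 45.5% ± 4.9 in wt/wt ES and 45.5% ± 3.6 in dcat/dcat ES (mean ± SD, n = 3). Tsks-201 held 41.9%, 45.1%, 44.7% and 40.9% in the same order, and Tsks-204 the rest. Tssk4-207 held 64.4% ± 2.3, 64.0% ± 1.5, 61.9% ± 7.6 and 70.2% ± 6.2 of the reads of Tssk4. Between stages the shares of the 6 contigs differed by -3.02 to 2.05 percentage points, and 0 of 6 passed (exact two-sided permutation test, p from 0.34 to 0.79, all q = 0.79), with 0 of 6 under an unadjusted p of 0.05 as well. Tssk4 had only 114 to 116 reads per group in ES, and the size of shift that this depth could show was not measured. Contigs of 1 gene share most of their sequence, and how reads were divided among them is uncertain.

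**Figure D4:**
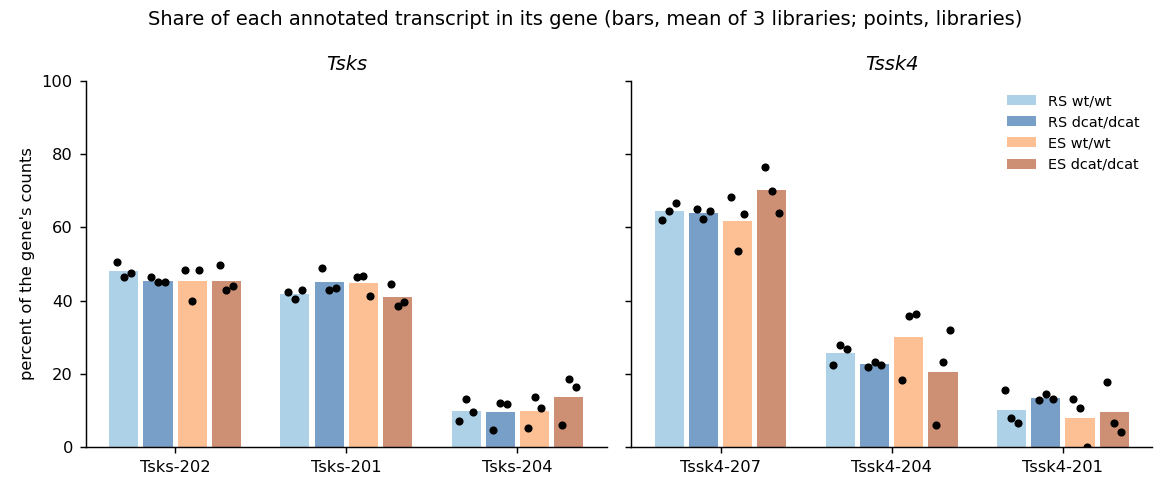
Percent of the reads of Tsks and of Tssk4 assigned to each annotated transcript, with bars for the mean of 3 libraries and points for single libraries in the 4 groups. Tsks-202 and Tsks-201 each hold between 40.9% and 48.2% on average, and Tssk4-207 holds 61.9% to 70.2%.

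The catalytic activity of TENT5C was the other factor of the design, and no member was called for it. In RS, 0 of 10 contigs passed for dcat/dcat against wt/wt (0% of all contigs), 0 had an unadjusted p under 0.05 (0.828% of all contigs) and 0 had groups that did not overlap (5.31% of all contigs) by edgeR, and DESeq2 called 0 too. The log2 changes ran from -0.35 for Tssk4-204 to 0.21 for Tssk4-201, and those of the better-counted Tssk1, Tssk2, Tssk3 and Tssk6 were -0.12 ± 0.16, 0.06 ± 0.18, 0.02 ± 0.21 and 0.10 ± 0.22 (SE). In ES, 0 of 10 passed (0% of all contigs), 0 had an unadjusted p under 0.05 (3.01%) and 0 did not overlap (7.66%) by edgeR, with 0 called by DESeq2. The ES changes were -0.16 ± 0.16 for Tssk1, 0.03 ± 0.18 for Tssk2, -0.15 ± 0.20 for Tssk3 and 0.04 ± 0.22 for Tssk6. The furthest from 0 was Tssk4-204 at -0.66 ± 0.49, a contig with 7, 20 and 8 counts in wt/wt ES and 2, 7 and 16 in dcat/dcat ES.

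The test of whether the stage difference itself differed between genotypes gave 0 of 10 contigs (0% of all contigs) by edgeR, with 0 at an unadjusted p under 0.05 (1.44% of all contigs) and 0 called by DESeq2. Estimates ran from -0.47 ± 0.31 for Tsks-201 to 0.21 ± 0.34 for Tssk4-207 on the log2 scale. These results concern read counts only and do not show that the genotypes were equal.

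Genes of known partners and substrates of these kinases did not move as 1 group. Of 10 listed genes 9 had a tested contig, of which 3 rose, 2 fell and 4 were not called in ES against RS in wt/wt, with the same counts in dcat/dcat. Over all contigs, the wt/wt comparison called 23.8% higher and 16.5% lower and the dcat/dcat comparison 24% and 16.9%, so these counts lie near the background. Their median log2 change was -0.36 in wt/wt and -0.30 in dcat/dcat, near the -0.24 and -0.18 of all contigs. Pdpk1, which encodes a kinase that activates many other kinases and can phosphorylate TSSK3, rose from 41.9 ± 9.1 to 246.0 ± 82.1 scaled CPM (mean ± SD, n = 3), a log2 change of 2.53 ± 0.27 (SE, edgeR q = 6.24e-06). Odf2, the outer dense fibre protein of the sperm tail and a TSSK4 substrate, rose by 1.61 ± 0.28 (edgeR q = 3.38e-04). Tsacc, a co-chaperone that links TSSK proteins to HSP90, rose from 609.9 ± 100.4 to 1647 ± 123.1 scaled CPM, by 1.43 ± 0.16 (edgeR q = 7.89e-06).

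The partner genes that fell were Spag16, which encodes a protein of the axoneme's central apparatus, and Hsp90aa1, an HSP90 chaperone gene. Spag16 went from 112.1 ± 9.99 to 40.5 ± 16.2 scaled CPM and fell by 1.45 on the log2 scale (SE 0.26, edgeR q = 5.14e-04), and Hsp90aa1 from 791.3 ± 124.6 to 430.8 ± 16.9, falling by 0.88 (SE 0.16, edgeR q = 5.91e-04). The other HSP90 gene, Hsp90ab1, was at -0.10 ± 0.28 (edgeR q = 0.801). Ppp1cc, a protein phosphatase gene, was at -0.37 ± 0.34 in wt/wt (edgeR q = 0.401) and -0.68 ± 0.34 in dcat/dcat (edgeR q = 0.125), and with the replicate number as a block it was called lower in both (edgeR q = 0.0412 and 5.63e-04), which made 3 falls. Also without a call were H2ax (-0.38, the histone variant phosphorylated in condensing chromatin) and Tssk5 (-0.36), another kinase of this family, which was barely counted at 8.60 ± 3.62 scaled CPM in wt/wt RS. Creb1 had no contig.

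The next list held genes of the chromatoid body, the RNA-rich granule of round spermatids from which TSKS-containing structures arise, and of the annulus, the septin ring of the sperm tail. Of 11 listed genes 10 were tested, of which 1 rose and 7 fell in wt/wt, against 23.8% of all contigs called higher and 16.5% lower, and 1 rose and 5 fell in dcat/dcat, against 24% and 16.9%. Their median log2 changes were -1.09 and -0.63, against -0.24 and -0.18 over all contigs. The chromatoid body genes Ddx4, Ddx25, Tdrd6, Tdrd7 and Mael fell in both genotypes by edgeR, and Piwil1 was not called. Ddx25, an RNA helicase gene, fell by 1.01 (SE 0.14, edgeR q = 5.25e-05), and the tudor-domain genes Tdrd6 and Tdrd7 fell by 1.19 (SE 0.19, edgeR q = 2.42e-04) and fell by 1.21 (SE 0.26, edgeR q = 0.00212). Septin4, a component of the annulus, rose by 1.97 ± 0.51 (SE, edgeR q = 0.00675), from 9.17 ± 5.48 to 38.0 ± 12.2 scaled CPM. Of the other annulus genes, Septin7 and Slc26a8, an anion transporter gene, fell in wt/wt (edgeR q = 0.0343 and 0.0486) but were not called in dcat/dcat (edgeR q = 0.27 and 0.374), and Septin12 was called in neither (edgeR q = 0.592 and 0.81). In ES wt/wt, Septin7 had 7.14 ± 3.38 and Slc26a8 15.1 ± 7.1 scaled CPM (mean ± SD). A count of 3 was worth 5.71 to 10.6 in those libraries, so the size of the Septin7 fall is uncertain. DESeq2 called 4 genes fallen in either genotype, without Mael (q = 0.089 and 0.056) and, in wt/wt, without Septin7 (q = 0.0972) and Slc26a8 (q = 0.055). In wt/wt 4 were also called fallen when leaving out ES wt/wt replicate 2, ES wt/wt replicate 3 or RS wt/wt replicate 1. In dcat/dcat 3 were called fallen without ES dcat/dcat replicate 3 or without RS dcat/dcat replicate 1.

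Of 31 related kinases of the CAMK group, 12 had a tested contig. In wt/wt 4 rose and 1 fell, against 23.8% of all contigs called higher and 16.5% lower, and in dcat/dcat 4 rose and 2 fell, against 24% and 16.9%. The median log2 changes were 0.41 and 0.32, against -0.24 and -0.18 over all contigs. Snrk, a kinase related to AMPK, rose from 10.5 ± 2.1 to 60.8 ± 11.4 scaled CPM (log2 change 2.47 ± 0.31 SE, edgeR q = 2.56e-05). Camk4, a calcium/calmodulin-dependent kinase gene that is active in spermatids, rose by 2.16 ± 0.35 (edgeR q = 2.35e-04) and Sik1, a salt-inducible kinase gene, by 2.63 ± 0.45 (edgeR q = 3.21e-04). Both were barely counted in RS wt/wt, Camk4 at 7.52 ± 1.35 scaled CPM and Sik1 at 4.91 ± 0.85 (mean ± SD). A count of 3 was worth 1.77 to 3.57 in those libraries, so the size of these rises is uncertain. Hunk fell by 1.18 in wt/wt (SE 0.30, edgeR q = 0.00543) and was at -0.41 ± 0.27 in dcat/dcat (edgeR q = 0.24), and 0 genes were called fallen in wt/wt without ES wt/wt replicate 1. The genes that fell in dcat/dcat were others, Mark3 by 3.32 (SE 0.82, edgeR q = 0.00488) and Stk33 by 1.02 (SE 0.34, edgeR q = 0.0268), which were not called in wt/wt (edgeR q = 0.133 and 0.137). Mark3 was barely counted, at 15.6 ± 9.8 scaled CPM in RS dcat/dcat and 1.34 ± 1.2 in ES dcat/dcat (mean ± SD). That ES mean lies under a count of 3, worth 5.07 to 7.49 scaled CPM in those libraries, so the size of this fall is uncertain. With the replicate number as a block, Mark3 and Stk33 were called lower in wt/wt too (edgeR q = 0.0361 and 0.0146) and Phkg2, a phosphorylase kinase gene, higher there (0.44, edgeR q = 0.027). In dcat/dcat 1 of the 2 falls was lost without ES dcat/dcat replicate 2, ES dcat/dcat replicate 3, ES wt/wt replicate 2 or RS dcat/dcat replicate 1. With total counts alone the falls came to 5 for the partners, 8 for the chromatoid body and annulus and 4 for the CAMK kinases in wt/wt. For the genotype, 0 genes of any of the 3 lists were called in either stage.

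**Figure D5:**
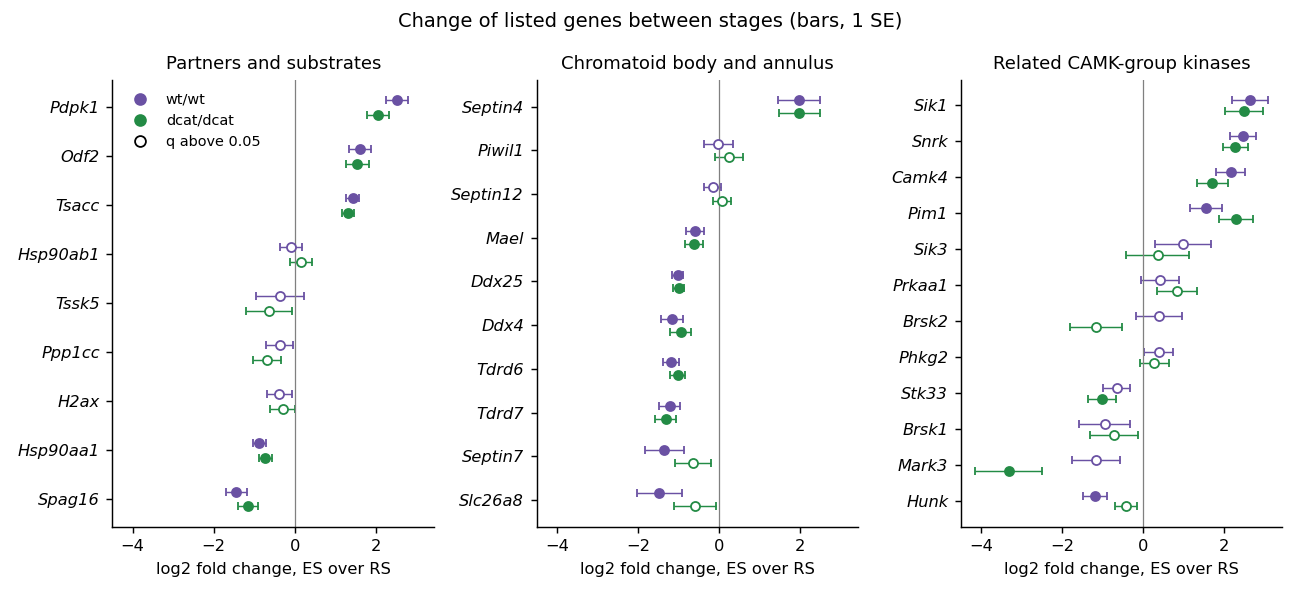
Log2 fold change of ES over RS of every tested gene of the 3 lists, by its contig with most counts, with bars of 1 SE, for wt/wt (purple) and dcat/dcat (green). Open points did not pass q = 0.05. Pdpk1, Odf2 and Tsacc lie above 1 among the partners, while most chromatoid body and annulus genes lie below 0, and scaling by total counts alone moves all points down.

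Among all other tested contigs, the pattern over the 12 libraries most like the mean of the 6 genes was that of Tuba4a, an alpha-tubulin gene, with a Pearson correlation of 0.993 in log2 scaled CPM. Next came Tmem239, Garin5a and Spmip8 (each 0.992) and Spatc1 (0.991). Their log2 changes in wt/wt ran from 2.34 for Garin5a to 2.95 for Tuba4a. A correlation above 0.9 was found for 1408 contigs. The points share their stage and the scaling, and the values describe likeness over these 12 libraries only. Against the same mean, of which each is a part, Tssk3 correlated at 0.988, Tssk2 at 0.980, Tsks at 0.979, Tssk1 at 0.977 and Tssk6 at 0.965, and Tssk4 ran the other way at -0.59.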

How the data were processed

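Direct RNA sequencing of 12 libraries gave whole-number counts of reads per contig, which the authors deposited without normalization. Per the study's methods, bases were called with Guppy, reads were aligned with minimap2 (version 2.20-r1061 in the submitters' processing notes, another in the methods) to GENCODE vM17 transcripts on GRCm38, and only reads with a tail that passed Nanopolish were kept. Poly(A) selection, that filter and the assignment among overlapping transcripts can all change counts. The deposited DESeq2 tables hold the authors' log2 fold changes and adjusted p-values, which were not used; only their gene symbols were, joined to the counts by contig.

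Counts were tested with edgeR 4.0.16 (quasi-likelihood, TMM scaling) in R 4.3.3, with 1 mean per group over all 12 libraries, for contigs that reached 10 counts in 2 or more libraries of any group, and p-values were adjusted by Benjamini-Hochberg over 11831 contigs. SE is the log2 change over the square root of F. DESeq2 1.42.0 was an alternative. Means, ratios and permutation tests used Python 3.11.15 with numpy 2.4.6, pandas 2.3.3 and scipy 1.17.1. Scripts were tested on simulated data. Scaled CPM per kb divides each contig by its own length. A replicate is 1 library of pooled mice, so p-values measure the spread between such libraries. Counting error alone limits a value at 3 counts or fewer.

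Positions and transcript structures came from GENCODE vM21 on GRCm38, which holds 11344 of the 11517 transcript contigs, and the letters of all 10 member contigs were the same in genome and transcripts. Windows before the members' starts were read from that genome by the GENCODE start of the most counted contig, and 32851 windows of other and the same genes came from RefSeq. Members, gene lists and markers were chosen with earlier results of these data known. Named were all member contigs, every tested partner or substrate, of the other 2 lists up to 3 risen and 3 fallen genes with the smallest q in wt/wt, and the 5 contigs most like the members; listed genes were read by their contig with most counts. Other symbols named in the text were chosen after their values were seen.

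Replicate numbers are shared by the groups. The study's methods state that a mouse gave both stages and that the genotypes were sorted in the same sessions, but do not tie the numbers to mice or sessions. Deviations of same-numbered libraries from their group means correlated at 0.679, 0.504 and 0.500 for the stages in dcat/dcat and at 0.846, 0.598 and 0.720 for the genotypes in RS, where every value is above 0.1, and at 0.564, 0.604 and -0.257 for the stages in wt/wt and 0.741, 0.595 and 0.0794 for the genotypes in ES. Because the stages share mice, values with the replicate number as a block are given in both genotypes wherever they change a call.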

Additional observations from a re-analysis of the deposited data

How the results depend on the processing

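The count of 7 member contigs called higher in ES was met in wt/wt and in dcat/dcat under DESeq2, RLE scaling, no filter, only the libraries compared and each left-out library. It was 6 with total counts alone, 6 of 7 tested with at least 10 counts in every library, and 5 of 6 genes with counts summed by gene. Members called lower numbered 1 with total counts alone in wt/wt and 3 in dcat/dcat, and 1 in either genotype with at least 10 counts in every library, against 0 otherwise. With the replicate number as a block, 7 members were called in either genotype, 0 for the genotypes or the interaction, and the Tssk3 to Tsks ratio was lost (q = 0.108), which left 12 pairs. Over all contigs the block gave 6105 calls in wt/wt and 6145 in dcat/dcat, against 4766 and 4849, and total counts alone gave 7364 and 6959. For the genotypes, the block gave 3 calls over all contigs in RS and 1 in ES, and DESeq2 gave 0 and 1. Calls for the genotypes and the interaction numbered 0 members under every alternative, and no called member change turned its direction. Leaving out 1 library gave 12 to 13 pair ratios and 0 contig shares.

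For the gene lists, alternatives were chosen after seeing the data. With total counts alone, falls in wt/wt and dcat/dcat numbered 5 and 4 for the partners, 8 and 8 for the chromatoid body and annulus, and 4 and 4 for the CAMK kinases. DESeq2 gave 4 falls for the chromatoid body and annulus in wt/wt, and the replicate block gave 3 for the CAMK kinases in wt/wt and 3 for the partners in either genotype. Leaving out 1 library gave 4 to 7 falls (wt/wt) and 3 to 5 (dcat/dcat) for the chromatoid body and annulus, and 0 to 1 and 1 to 2 for the CAMK kinases. The cause of these differences was not tested.

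Contigs with few reads limit precision: the Tssk4 contigs had at most 32 counts in any ES library, and the smallest library, ES wt/wt replicate 3, had 0 counts for Tssk4-201.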
